A study of Mus musculus with 9 samples.

Results

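A group of 9 genes of double-stranded RNA sensing and editing was followed in mouse oocytes with and without MTR4, the nuclear RNA helicase that hands transcripts to the RNA exosome for degradation. They are the sensors Ddx58 (RIG-I), Ifih1 (MDA5), Dhx58 (LGP2) and Tlr3, the adaptor Mavs, the effectors Eif2ak2 (PKR), Zbp1 and Xaf1, and the editing enzyme Adar. They were taken by symbol, and all 9 were found among the 23235 genes of the deposited table. At least 1 FPKM (fragments relative to the transcript's length and the library's mapped total) in at least 1 column was reached by 7 of the 9.

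Total RNA was sequenced from oocytes of day 21 whose nucleus had been taken out of the cytoplasm under a micromanipulator, with 10 nuclei or 10 cytoplasms pooled per library. The labels list 2 libraries of nuclei from Mtr4-null oocytes, 3 of nuclei from WT oocytes, 2 of cytoplasms from Mtr4-null oocytes and 2 of cytoplasms from WT oocytes. All groups share the cell type, the day and the removal of ribosomal RNA. The null allele, any Cre driver, the strain and the number of animals are not given in the sources used here. The table holds 1 column per group, the authors' mean FPKM, so no value has an error, no difference has a test, and each comparison describes these 4 columns only.

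Long double-stranded RNA marks viral replication in most cells, and RNA of the cell itself can take the same form. RIG-I and MDA5 bind it in the cytosol and pass the signal to MAVS on the mitochondrial surface, whereas TLR3 binds it in endosomes and signals through TRIF (Ticam1), and both routes lead to type I interferon. PKR shuts down translation by phosphorylating eIF2 alpha, ZBP1 binds left-handed double helices and can start necroptosis through RIPK3, and ADAR1 edits adenosine to inosine in double helices, which keeps RNA of the cell from being sensed. XAF1 is an interferon-induced partner of the apoptosis inhibitor XIAP. Mouse oocytes are known for another fate of double-stranded RNA: an oocyte form of Dicer cuts it into small interfering RNAs.

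The columns summed to 880989 FPKM in MTR4-null nuclei, 854286 in WT nuclei, 433013 in MTR4-null cytoplasms and 416740 in WT cytoplasms, and the read depth behind them is unknown. Small RNA genes took 53.5% of the sum in MTR4-null nuclei, 57.7% in WT nuclei, 39.0% in MTR4-null cytoplasms and 4.09% in WT cytoplasms. FPKM is relative to a library's mapped total and not to these sums, and the share of small RNA genes among the mapped fragments is unknown. The Mtr4 transcript, listed under its older symbol Skiv2l2, stood at 18.0% of WT in the nucleus and 11.6% of WT in the cytoplasm, in the direction of the labels. All 12 oocyte markers reached 1 FPKM, with summed levels of 11103 FPKM in MTR4-null nuclei, 8960 in WT nuclei, 6834 in MTR4-null cytoplasms and 10897 in WT cytoplasms. Markers of other ovarian cells were low: 12 granulosa and cumulus genes summed to 54.6 FPKM in MTR4-null nuclei, 55.6 in WT nuclei, 43.9 in MTR4-null cytoplasms and 56.1 in WT cytoplasms, and the theca, endothelial and erythroid lists to at most 27.0 FPKM. In such pools, fewer cells that express a gene and less of its RNA per cell cannot be told apart.

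Because interferon-stimulated genes are known for a promoter element with the core GAAANNGAA, the windows from 250 bases before to 50 bases after the annotated starts were searched for it on both strands (RefSeq sequences, build GRCm38.p6). Of the 9 genes, 7 had a window in the promoter table, Zbp1 and Dhx58 did not, and 4 of the 7 held the core, namely Eif2ak2, Ddx58, Ifih1 and Adar. In the full promoter set 9.76% of 27025 genes and 8.56% of 32851 windows held it. The windows of Eif2ak2 and Xaf1 are shown whole because these genes differed in opposite directions between the MTR4-null and the WT nucleus. For Ddx58, Ifih1 and Adar the bases around the match nearest to the window's end are shown. Matches are in capitals, all sequences run 5′ to 3′ on the strand of the gene, and positions count from +1 at the start.
Eif2ak2, chr17:78882523-78882822, minus strand: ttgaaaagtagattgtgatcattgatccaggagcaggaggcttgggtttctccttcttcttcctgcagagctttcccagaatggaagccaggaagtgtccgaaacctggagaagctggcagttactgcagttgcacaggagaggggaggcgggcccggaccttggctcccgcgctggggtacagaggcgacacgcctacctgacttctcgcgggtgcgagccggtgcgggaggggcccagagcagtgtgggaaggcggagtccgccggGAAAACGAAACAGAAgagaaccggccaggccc
Xaf1, chr11:72301379-72301678, plus strand: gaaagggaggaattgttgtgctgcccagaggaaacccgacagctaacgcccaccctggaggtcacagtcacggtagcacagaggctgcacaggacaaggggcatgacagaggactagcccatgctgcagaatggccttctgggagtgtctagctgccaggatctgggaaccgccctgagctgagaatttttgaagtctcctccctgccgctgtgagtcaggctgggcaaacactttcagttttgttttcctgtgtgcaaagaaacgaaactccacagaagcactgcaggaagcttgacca
Ddx58, chr4:40239804-40239832, minus strand: ctgaggcagtTTCGATTTCctatggccag
Ifih1, chr2:62646206-62646233, minus strand: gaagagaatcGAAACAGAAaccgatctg
Adar, chr3:89730741-89730767, plus strand: tcaaggaaacGAAAGTGAActctgggg

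Eif2ak2 held overlapping matches at +19 to +27 and at +25 to +33, and 0.624% of all windows held 2 or more. Ifih1 had a match at +33 to +41 and another on the opposite strand, between -112 and -104. The last of 3 Adar windows had matches at -249 to -241 and at +34 to +42. The match of Ddx58, at +4 to +12, lay on the opposite strand. The letters of the core were not found in the windows of Xaf1, Mavs and Tlr3 or in the other Adar windows. Genes with a match differed from each other in the RNA data: Eif2ak2 was lower in the MTR4-null nucleus, Ifih1 was near 0 in all columns, and Adar was among the more abundant genes in all columns.

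Among the 9 genes, levels ran from 0 to 30.4 FPKM. Adar was the highest in the MTR4-null nucleus, the WT nucleus and the WT cytoplasm, and Mavs was the highest in the MTR4-null cytoplasm. Among all genes of the table Adar lay at percentile 85.2 in MTR4-null nuclei, 82.9 in WT nuclei, 86.2 in MTR4-null cytoplasms and 83.5 in WT cytoplasms. Ifih1 and Dhx58 were at the bottom of the list, except that Zbp1 was lowest in the WT cytoplasm. The 9 genes summed to 74.8 FPKM in MTR4-null nuclei, 58.5 in WT nuclei, 60.5 in MTR4-null cytoplasms and 42.6 in WT cytoplasms. At least 1 FPKM was reached by 7 of them in MTR4-null nuclei, 7 in WT nuclei, 5 in MTR4-null cytoplasms and 4 in WT cytoplasms.

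**Figure D1:**
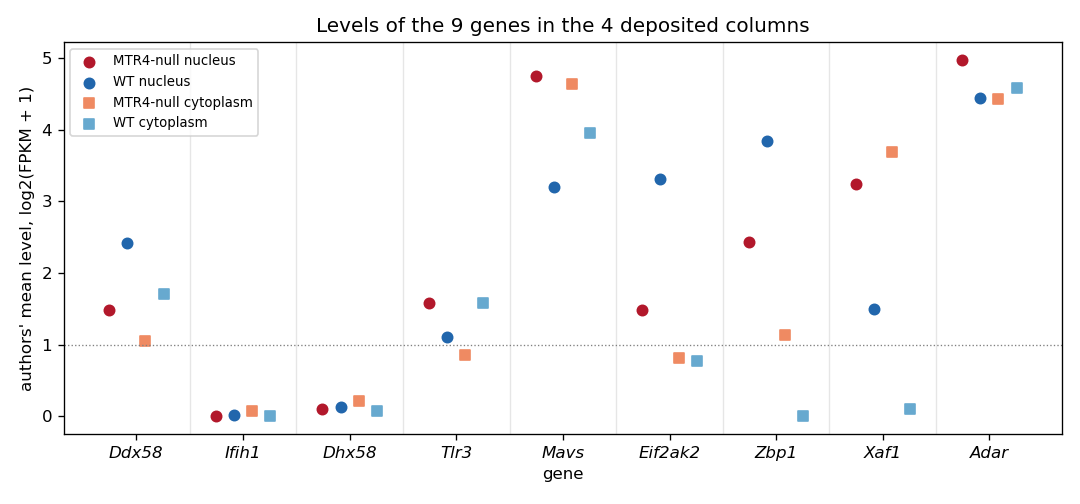
Level of each gene on log2(FPKM + 1), with circles for nuclei, squares for cytoplasms, red and orange for MTR4-null and blue for WT. Each point is the authors' mean of a group, so there are no error bars, and the dotted line is 1 FPKM. Adar and Mavs are high in all 4 columns, Ifih1 and Dhx58 lie near 0, and Eif2ak2, Zbp1 and Xaf1 are spread most widely.

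Between MTR4-null and WT nuclei, the 3 effectors and the adaptor stood at least 2-fold apart, and the editing enzyme less than that. Eif2ak2 stood at 20.0% and Zbp1 at 33.1% of WT, whereas Mavs was 3.16-fold and Xaf1 4.67-fold higher in the MTR4-null nucleus. A difference of at least 2-fold on the log2(FPKM + 1) scale, which understates differences of low genes, was thus met by 2 of the 9 genes upward and 2 downward, with 5 in between. Of the 14270 genes at 1 FPKM or more in at least 1 column, 23.9% passed 2-fold upward and 12.3% downward between these nuclei. Over all 23235 genes, which like the 9 include genes under 1 FPKM, the shares were 14.7% and 7.54%. Among the 9 they were 22.2% each way, which rests on 2 genes each way and was not tested. The median difference of the 9 was -0.02, against 0.21 over the 14270 genes and 0 over all genes of the table.

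In the cytoplasm, Zbp1 and Xaf1 were the 2 of 9 genes at least 2-fold higher in MTR4-null, and none of the 9 was at least 2-fold lower. Over the 14270 genes 15.0% passed 2-fold upward and 21.4% downward. The median of the 9 was 0.07, against -0.26 over the 14270 genes and 0 over the table. Of all genes at least 2-fold apart, 66.1% were the higher ones in the MTR4-null nucleus and 41.2% in the MTR4-null cytoplasm. These splits depended on the scaling: they were 48.9% in the nucleus after quantile normalization, and 80.7% in the cytoplasm when the columns were centred on genes that reached 1 FPKM in all 4 columns.

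**Figure D2:**
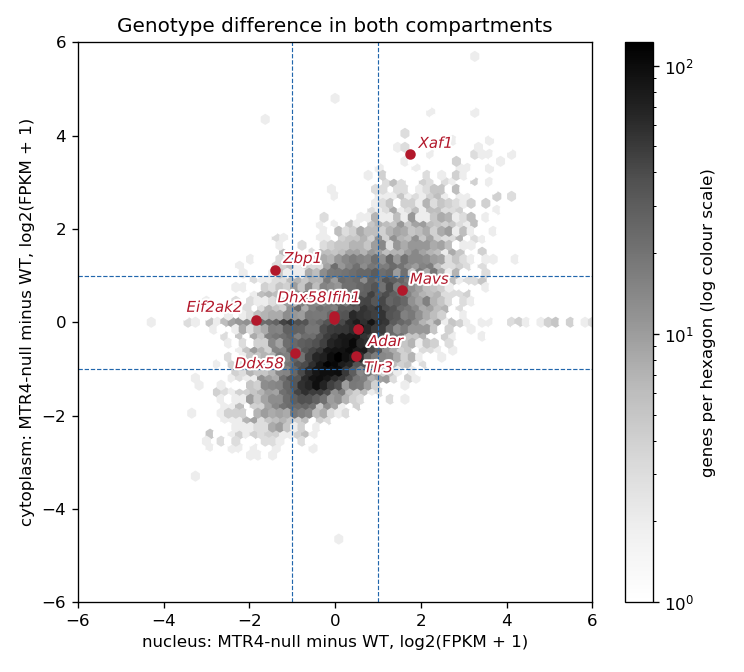
Difference of MTR4-null minus WT on log2(FPKM + 1), in the nucleus (horizontal axis) and in the cytoplasm (vertical axis). Grey hexagons count the 14270 genes at 1 FPKM or more in at least 1 column, 109 of which lie beyond the axes, red points are the 9 genes, and dashed lines mark 2-fold. Xaf1 is at the upper right, Zbp1 at the upper left, and Eif2ak2 at the left on the line of no cytoplasmic difference.

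Ddx58 encodes RIG-I, which binds short double-stranded RNA with a 5′ triphosphate. It had 1.79 FPKM in the MTR4-null nucleus and 4.34 in the WT nucleus, beside 1.07 FPKM in the MTR4-null cytoplasm and 2.28 in the WT cytoplasm. It was therefore lower in MTR4-null in both compartments, at 41.1% of WT in the nucleus and 46.8% of WT in the cytoplasm. On the log2(FPKM + 1) scale the differences were -0.94 in the nucleus and -0.67 in the cytoplasm, both inside 2-fold. The nuclear one passed 2-fold under each of 4 other scalings, with values down to -1.26. The values of Ddx58 are low in all 4 columns, and with the depth unknown their precision is unknown too.

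Ifih1 encodes MDA5, the sensor of long double-stranded RNA. It was listed at 0 in MTR4-null nuclei, 0.0131 FPKM in WT nuclei, 0.0557 FPKM in MTR4-null cytoplasms and 0.0049 FPKM in WT cytoplasms. Dhx58 encodes LGP2, a helper of MDA5 without a signalling domain of its own. Its values were 0.0763 FPKM in MTR4-null nuclei, 0.0923 in WT nuclei, 0.156 in MTR4-null cytoplasms and 0.0473 in WT cytoplasms. Both genes stayed under 1 FPKM in all 4 columns, and with the depth unknown no difference is read from such values.

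Tlr3 encodes the endosomal receptor. The gene had 2.004 FPKM in the MTR4-null nucleus and 1.16 in the WT nucleus, and had 0.814 FPKM in the MTR4-null cytoplasm and 1.98 in the WT cytoplasm. Tlr3 was higher in the MTR4-null nucleus than in the WT nucleus, by 0.48 on the log2 scale, and lower in the MTR4-null cytoplasm than in the WT cytoplasm, with a difference of -0.72. Both differences were smaller than 2-fold on the log2(FPKM + 1) scale, but the cytoplasmic one was -1.01 after quantile normalization and -1.19 with a pseudocount of 0.1.

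Mavs encodes the adaptor shared by RIG-I and MDA5. Its level was 25.9 FPKM in the MTR4-null nucleus and 8.19 in the WT nucleus, along with 23.9 FPKM in the MTR4-null cytoplasm and 14.5 in the WT cytoplasm. Mavs was higher in MTR4-null in both compartments, by 1.55 on the log2 scale in the nucleus and by 0.68 in the cytoplasm. The cytoplasmic ratio was 1.65. Under the other scalings the cytoplasmic difference ran up to 1.25, past 2-fold, and the nuclear one down to 1.20. Mavs took place 2 among the 9 genes in the MTR4-null nucleus and place 4 in the WT nucleus.

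Eif2ak2 encodes PKR. It had 1.79 FPKM in the MTR4-null nucleus against 8.94 in the WT nucleus, a log2 difference of -1.83, the most negative of the 9. In the cytoplasm it was low in both genotypes, at 0.755 FPKM in MTR4-null and 0.702 FPKM in WT. The nuclear difference was -1.83 to -2.20 over all scalings, and -1.04 with a pseudocount of 5. The sign of the cytoplasmic difference (0.04) turned with the scaling, between -0.22 and 0.61. The GRCm38 annotation places the transcribed pseudogene Gm6548 over Eif2ak2. This pseudogene had 2.34 FPKM in the MTR4-null nucleus and 0.143 in the WT nucleus, opposite in direction to Eif2ak2. The labels do not say whether strand was used in counting or how fragments of such overlaps were assigned, and the Eif2ak2 values are uncertain to that extent.

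Zbp1 encodes the sensor of left-handed double helices. Its level was 4.40 FPKM in the MTR4-null nucleus and 13.3 in the WT nucleus, a log2 difference of -1.40. In the cytoplasm it had 1.18 FPKM in MTR4-null and was listed at 0 in WT, which gives 1.13 on the log2(FPKM + 1) scale and no fold. Zbp1 thus differed by at least 2-fold in opposite directions in the compartments, and the nuclear difference minus the cytoplasmic one was -2.53. With a pseudocount of 5 neither difference reached 2-fold, at -0.96 for nuclei and 0.31 for cytoplasms, whereas with a pseudocount of 0.1 the cytoplasmic one was 3.68. Among the 14270 genes, 105 (0.736%) were likewise lower in the MTR4-null nucleus and higher in the MTR4-null cytoplasm, each by at least 2-fold. The difference between the compartments was not tested.

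Xaf1 was higher in MTR4-null in both compartments. It had 8.49 FPKM in the MTR4-null nucleus and 1.82 in the WT nucleus, or 1.75 on the log2 scale and 0.98 with a pseudocount of 5. Its cytoplasmic levels were 12.0 FPKM in MTR4-null and 0.0707 in WT, a log2(FPKM + 1) difference of 3.60, the widest among the 9 genes in either compartment. Because the WT cytoplasmic value is under 1 FPKM, no ratio is given. Its binding partner gene Xiap was nearly level, with 7.77 FPKM in the MTR4-null nucleus and 6.32 in the WT nucleus, next to 5.85 FPKM in the MTR4-null cytoplasm and 5.76 in the WT cytoplasm. The gene next to Xaf1, Fbxo39, had 0.577 FPKM in the MTR4-null nucleus and 2.54 in the WT nucleus, the other direction.

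Some markers of leukocytes also had higher values in the MTR4-null cytoplasm. Of 15 macrophage and other leukocyte markers in the table, 5 reached 1 FPKM and 10 were under 1 FPKM in every column. In the MTR4-null cytoplasm 3 of them (Cd74, Tyrobp and C1qa) passed 2-fold upward and none downward. The upward share there was 15.0% of the 14270 genes at 1 FPKM or more and 9.19% of all 23235 genes. Over the scalings 2 to 7 of the markers passed 2-fold upward. The 15 summed to 12.4 FPKM in the MTR4-null nucleus and 9.26 in the WT nucleus, and to 20.3 FPKM in the MTR4-null cytoplasm and 7.15 in the WT cytoplasm. C1qb made up much of these sums, at 8.52 FPKM in the MTR4-null cytoplasm and 5.15 in the WT cytoplasm. Ptprc, the gene of the common leukocyte antigen CD45, was near 0 in all columns, at 0.0143 FPKM in MTR4-null nuclei, 0 in WT nuclei, 0.107 in MTR4-null cytoplasms and 0.0415 in WT cytoplasms. Of the 15 markers, 4 were at 0 in MTR4-null nuclei, 8 in WT nuclei, 1 in MTR4-null cytoplasms and 6 in WT cytoplasms. Their part in the cytoplasmic differences of Xaf1 and Zbp1 was not tested.

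Adar encodes the editing enzyme ADAR1. It had 30.4 FPKM in the MTR4-null nucleus and 20.7 in the WT nucleus, a log2 difference of 0.53, and 20.6 FPKM in the MTR4-null cytoplasm and 23.0 in the WT cytoplasm, a difference of -0.15. On the log2 scale its 4 values spanned less than those of any other gene of the 9 that reached 1 FPKM in all 4 columns. The sign of the cytoplasmic difference turned with the scaling, up to 0.42. The overlapping Chrnb2 stayed under 1 FPKM in all columns. The deposited table does not hold editing levels or separate the interferon-induced from the constitutive form of ADAR1, and neither was analysed here.

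**Figure D3:**
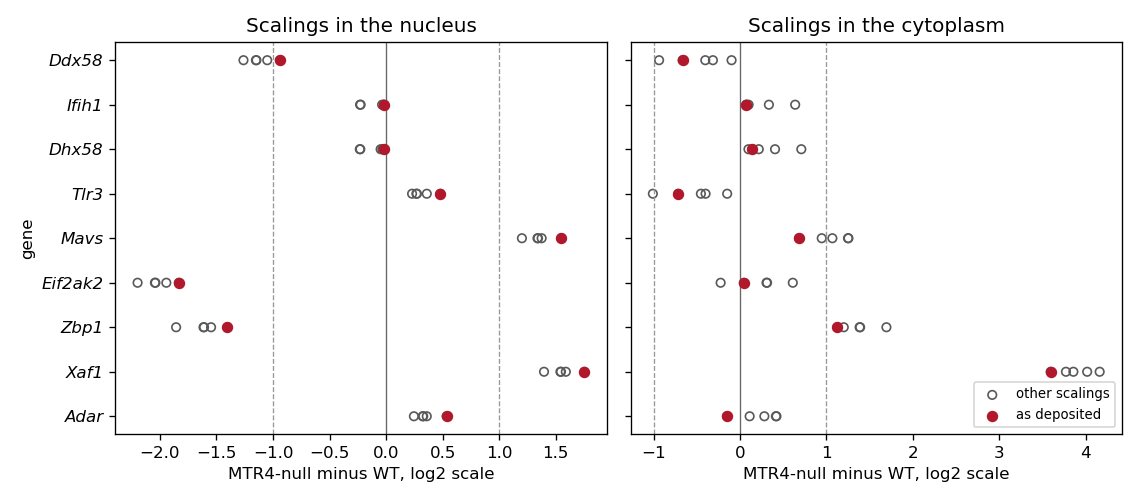
Difference of MTR4-null minus WT for each gene in the nucleus (left) and the cytoplasm (right), with red points for the deposited FPKM and open circles for 4 other scalings of the columns. Dashed lines mark 2-fold. In the nucleus the sign of all 9 holds, and in the cytoplasm those of Eif2ak2 and Adar do not. Ifih1 and Dhx58 stayed under 1 FPKM in all columns, so no difference is read from their signs.

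The median difference of the 14270 genes was 0.21 between the nuclei of the genotypes and -0.26 between their cytoplasms. Relative to these medians, the nuclear log2 differences were -2.04 for Eif2ak2, -1.61 for Zbp1, -1.15 for Ddx58, 1.34 for Mavs and 1.55 for Xaf1. In the cytoplasm the relative values were 3.86 for Xaf1, 1.39 for Zbp1 and 0.95 for Mavs. The order of the genes is that of the deposited values.

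Differences between genotypes also varied with GC content over 11876 genes with an annotated coding transcript. Across 5 bins from low to high GC, the median nuclear difference was -0.08, -0.00476, 0.16, 0.35 and 0.60. Eif2ak2, with 43.9% GC, was in bin 1, and Mavs, with 53.9%, and Adar, with 53.4%, were in bin 4. These genes had the sign of their bin's median. Their differences were -1.83 for Eif2ak2, beside -0.08 for its bin, and 1.55 for Mavs and 0.53 for Adar, beside 0.35. Tlr3, with 40.0%, was in bin 1 too and had the opposite sign (0.48). Zbp1, with 52.9%, was in bin 4 too and had the opposite direction. Xaf1, with 47.4%, and Ddx58, with 46.6%, were in bin 2, whose median was near 0. Between the cytoplasms of the genotypes the bin medians were -0.50, -0.50, -0.40, -0.26 and -0.00153. The part of GC content in the differences was not tested.

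In WT oocytes, the effectors had higher FPKM in the nucleus than in the cytoplasm. FPKM is relative to the mapped total of each compartment's own libraries. A difference between compartments therefore does not say where most of a transcript lay. Eif2ak2 was higher in the nucleus than in the cytoplasm by 2.55 on the log2(FPKM + 1) scale. Zbp1 had 13.3 FPKM in the nucleus and was listed at 0 in the cytoplasm. Xaf1 was higher in the nucleus by 1.40, a difference of 0.43 with a pseudocount of 5. These 3 of 9 genes were at least 2-fold higher in the WT nucleus and none was at least 2-fold lower, where 12.4% of the 14270 genes were higher and 4.71% lower. Mavs (-0.76), Tlr3 (-0.47) and Adar (-0.15) had the higher value in the WT cytoplasm, by less than 2-fold.

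In MTR4-null oocytes, of the 9 genes 1, Zbp1, was at least 2-fold higher in the nucleus, with 4.40 FPKM there and 1.18 FPKM in the cytoplasm. None was at least 2-fold lower. The shares over the 14270 genes were 17.0% higher and 1.84% lower. Eif2ak2 was higher in the nucleus by 0.67 on the log2(FPKM + 1) scale, and Xaf1 had the higher value in the cytoplasm, with a ratio of 0.710. Zbp1 itself fell short of 2-fold under each of the 4 other scalings, with values down to 0.69, and Xaf1 was at least 2-fold lower in the nucleus under some of them, down to -1.14. The signs for Ddx58, Mavs and Adar in this comparison turned with the scaling.

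Of all genes at least 2-fold apart between compartments, the nuclear ones made up 90.3% in MTR4-null and 72.5% in WT as deposited. After centring on genes that reached 1 FPKM in all 4 columns the share in MTR4-null was 36.3%, and after quantile normalization the share in WT was 54.0%. The nuclear-minus-cytoplasmic difference in MTR4-null minus the same in WT was -1.88 for Eif2ak2, -2.53 for Zbp1 and -1.84 for Xaf1, but 1.19 for Tlr3, 0.87 for Mavs and 0.69 for Adar. The 4 comparisons share their columns, so they are not independent of each other.

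**Figure D4:**
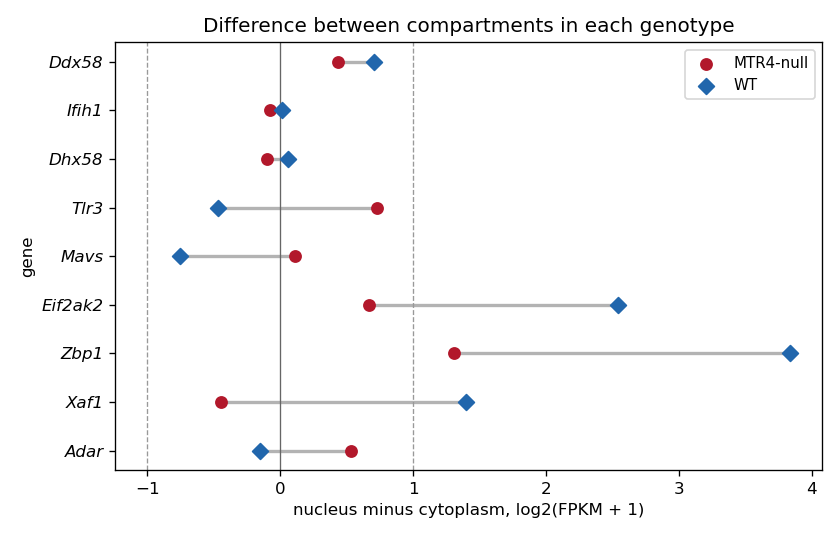
Difference of nucleus minus cytoplasm on log2(FPKM + 1) for each gene, with red circles for MTR4-null and blue diamonds for WT, joined by a line. Dashed lines mark 2-fold. Eif2ak2, Zbp1 and Xaf1 are past 2-fold on the nuclear side in WT, and their MTR4-null points lie far to the left of these.

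The 10 lists of related genes were read the same way, with higher and lower meaning at least 2-fold. In the MTR4-null nucleus, 23.9% of the 14270 genes were higher and 12.3% lower, as given above. In the MTR4-null cytoplasm, 15.0% and 21.4% were. Over all 23235 genes the shares were 14.7% and 7.54% in the nucleus and 9.19% and 13.1% in the cytoplasm. The list counts include genes under 1 FPKM in every column, which cannot be 2-fold apart on this scale, unlike the shares over the 14270 genes. Many of these counts depend on the scaling, and ranges over the scalings are given for several. Some genes stand in 2 lists, among them 8 of the 2-5A synthetase family, which are also interferon-stimulated genes.

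Downstream of the sensors, 8 of 26 genes of RIG-I-like receptor and TLR3 signalling passed 2-fold upward and 1 downward in the MTR4-null nucleus. Over the scalings 6 to 8 were higher and 1 to 2 lower there. In the MTR4-null cytoplasm 6 were higher and 1 lower, with 6 to 10 higher and 0 to 2 lower over the scalings. The median log2 differences of the 26 were 0.77 and 0.15. Trim25, whose product ubiquitinates RIG-I, had 12.1 FPKM in the MTR4-null nucleus and 0.740 in the WT nucleus, beside 4.11 FPKM in the MTR4-null cytoplasm and 0.411 in the WT cytoplasm. Ikbkg, the regulatory subunit of the IkB kinase, had 22.0 FPKM in the MTR4-null nucleus and 3.57 in the WT nucleus, and had 10.3 FPKM in the MTR4-null cytoplasm and 0.606 in the WT cytoplasm. The adaptor gene Tradd and the ubiquitin ligase gene Traf2 were also higher in both compartments, by 2.45 and 2.04 on the log2 scale in the nucleus and by 1.78 and 2.41 in the cytoplasm. Tank, which encodes a partner of the kinase TBK1, was the gene lower in both compartments; it was named after its values were seen. It had 3.41 FPKM in the MTR4-null nucleus and 12.0 in the WT nucleus, along with 3.32 FPKM in the MTR4-null cytoplasm and 8.54 in the WT cytoplasm.

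The interferon genes at the end of the route were close to 0. All 22 ligand and cytokine genes found in the table were under 1 FPKM in every column, and 16 of them, Ifnb1, Tnf and Cxcl10 among them, were listed at 0 in all 4. Their sums were 1.001 FPKM in MTR4-null nuclei, 0.848 in WT nuclei, 0.825 in MTR4-null cytoplasms and 0.0439 in WT cytoplasms. The highest value was 0.696 FPKM for Ifna13 in the MTR4-null cytoplasm, and alpha interferon genes are near-identical copies whose fragments the counting could split.

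Among 16 genes of interferon receptors and JAK-STAT signalling, 4 were higher and 1 lower in the MTR4-null nucleus, and 3 were higher and 2 lower in the MTR4-null cytoplasm. Socs3 and Socs1 encode inhibitors of this signalling. Socs3 had 28.9 FPKM in the MTR4-null nucleus and 4.51 in the WT nucleus, next to 30.4 FPKM in the MTR4-null cytoplasm and 3.52 in the WT cytoplasm. Socs1 had 76.2 FPKM in the MTR4-null nucleus and 29.3 in the WT nucleus. The kinase gene Jak2 was lower, with 45.5 FPKM in the MTR4-null nucleus and 114 in the WT nucleus, beside 31.7 FPKM in the MTR4-null cytoplasm and 126 in the WT cytoplasm. Il10rb, a receptor chain for interferon lambda and interleukin 10, had 6.74 FPKM in the MTR4-null cytoplasm and 15.3 in the WT cytoplasm.

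Of 41 other interferon-stimulated genes in the table, 19 reached 1 FPKM. In the MTR4-null nucleus 1 passed 2-fold upward and 4 downward, and in the MTR4-null cytoplasm 1 was higher and 7 lower, with medians of -0.06 and 0.02 over the 41. Over the scalings 1 to 7 were lower and 1 to 5 higher in the cytoplasm. Isg15, the ubiquitin-like interferon-induced modifier, was picked out afterwards because its pattern resembled that of Zbp1. It had 1.45 FPKM in the MTR4-null nucleus and 4.40 in the WT nucleus, but 2.33 FPKM in the MTR4-null cytoplasm while it was listed at 0 in the WT cytoplasm. Parp12, which encodes an ADP-ribosyltransferase, was nearly level in the nucleus, at 305 FPKM in MTR4-null and 318 in WT, and lower in the cytoplasm, at 164 FPKM in MTR4-null and 372 in WT. Isg20, an RNA exonuclease gene, had 3.02 FPKM in the MTR4-null cytoplasm and 7.57 in the WT cytoplasm. Between the compartments of WT oocytes, Isg15, Oas2, Igtp and Mx1 passed 2-fold on the nuclear side, that of Eif2ak2 and Zbp1, and Bst2 on the cytoplasmic side; these 5 are all such genes of the 41 and were named after their values were seen. Over the scalings 3 to 5 were nuclear and 0 to 2 cytoplasmic. Of the 14270 genes 12.4% were nuclear and 4.71% cytoplasmic, and of all 23235 genes 7.64% and 2.89% were. Oas2, for example, had 2.19 FPKM in WT nuclei and 0.081 in WT cytoplasms.

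The list of 2-5A synthetases and related genes, a family named for enzymes that make oligoadenylates when bound to double-stranded RNA, held 4 of 13 genes lower in the MTR4-null nucleus and 6 lower in the MTR4-null cytoplasm, with none higher. Over the scalings 3 to 6 were lower in the cytoplasm. Oas1h had 101 FPKM in the MTR4-null nucleus and 262 in the WT nucleus, and had 55.6 FPKM in the MTR4-null cytoplasm and 285 in the WT cytoplasm. Oas1f had 2.36 FPKM in the MTR4-null cytoplasm and 29.9 in the WT cytoplasm, the widest difference of the list (-3.20). Oas1d and Oas1c were lower in the cytoplasm, with differences of -1.69 and -1.50, and within 2-fold in the nucleus, at -0.35 and -0.20. Oas3 had 8.65 FPKM in the MTR4-null nucleus and 21.3 in the WT nucleus. The Oas1 genes are closely related copies, so the split of fragments between them is uncertain.

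Among 22 other genes of double-stranded RNA binding and editing, 3 were higher and none lower in the MTR4-null nucleus, and 2 were higher and 7 lower in the MTR4-null cytoplasm, where 1 to 7 were lower over the scalings. Adad2, an adenosine deaminase domain gene related to Adar, had 21.2 FPKM in the MTR4-null nucleus and 10.4 in the WT nucleus, along with 19.6 FPKM in the MTR4-null cytoplasm and 3.60 in the WT cytoplasm. Dgcr8, the partner of Drosha in microRNA processing, had 37.7 FPKM in the MTR4-null nucleus and 11.1 in the WT nucleus. Zfr and Nkrf were lower in the MTR4-null cytoplasm, at 27.5 and 5.23 FPKM, against 87.1 and 16.8 FPKM in the WT cytoplasm. Dicer1 had 102 FPKM in the MTR4-null nucleus and 103 in the WT nucleus, next to 66.1 FPKM in the MTR4-null cytoplasm and 104 in the WT cytoplasm.

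The list around PKR and its target eIF2 alpha had 2 of 19 genes higher and 3 lower in the MTR4-null nucleus, and 1 higher and 8 lower in the MTR4-null cytoplasm, with medians of 0.15 and -0.85. The 8 was the highest cytoplasmic count, and the lowest over the scalings was 2. Eif2ak4, which encodes the amino acid sensing kinase GCN2, had 11.2 FPKM in the MTR4-null nucleus and 21.5 in the WT nucleus, beside 6.84 FPKM in the MTR4-null cytoplasm and 27.5 in the WT cytoplasm. Dnajc3, whose product inhibits PKR, was lower in both compartments, at -1.17 in the nucleus and -1.64 in the cytoplasm. The genes of 2 subunits of the exchange factor eIF2B, Eif2b2 and Eif2b5, were higher in the MTR4-null nucleus by 1.60 and 1.69. In the cytoplasm Eif2b2 was lower in MTR4-null (-1.57) and Eif2b5 was level.

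Among 16 genes of ZBP1 necroptosis and cell death, 2 were higher and 1 lower in the MTR4-null nucleus, and none was higher and 3 lower in the MTR4-null cytoplasm, where 0 to 3 were lower over the scalings. The genes of the necroptosis kinase and its substrate, Ripk3 and Mlkl, were under 1 FPKM in all columns. Diablo, which encodes a mitochondrial inhibitor of the XIAP family, had 53.5 FPKM in the MTR4-null nucleus and 7.78 in the WT nucleus. Casp9 had 10.8 FPKM in the MTR4-null nucleus and 3.21 in the WT nucleus. Cflar, which encodes an inhibitor of caspase 8, was lower in both compartments, at -1.53 in the nucleus and -1.13 in the cytoplasm. The XIAP-family gene Birc5 was lower in the MTR4-null cytoplasm, at -1.12.

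Of 10 genes of cytosolic DNA sensing, none was higher in either compartment of MTR4-null, 1 was lower in the nucleus and 2 in the cytoplasm (over the scalings 0 to 2 were lower and 0 to 1 higher there). Aim2, which encodes an inflammasome sensor, had 1.24 FPKM in the MTR4-null nucleus and 6.38 in the WT nucleus, and had 0.551 FPKM in the MTR4-null cytoplasm and 0.0112 in the WT cytoplasm. Samhd1 and Ddx41 were lower in the cytoplasm, at -1.21 and -1.10, and Rnaseh2c was within 2-fold in both compartments. Of 12 genes of decay and removal of self RNA, 3 were higher and 1 lower in the nucleus (1 to 3 and 1 to 2 over the scalings) and 2 were higher and 3 lower in the cytoplasm. Wdr61, a subunit gene of the Ski and PAF complexes, had 61.4 FPKM in the MTR4-null nucleus and 3.77 in the WT nucleus, along with 28.2 FPKM in the MTR4-null cytoplasm and 4.42 in the WT cytoplasm. The exosome nuclease gene Exosc10 and the Ski gene Ttc37 were lower in the cytoplasm, at -1.88 and -1.85. The third gene lower there was Skiv2l2, the Mtr4 gene itself, which was also the 1 gene lower in the nucleus. As the gene that the genotype targets, Skiv2l2 says nothing about the rest of the list.

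**Figure D5:**
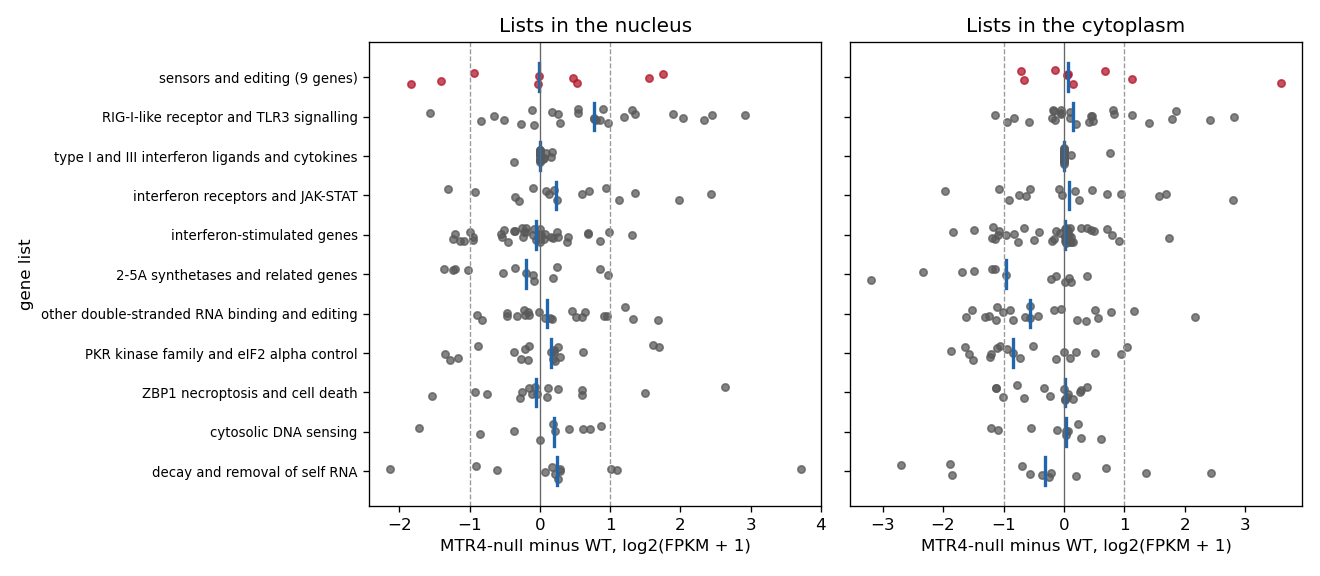
Difference of MTR4-null minus WT on log2(FPKM + 1) for each gene of 10 pathway lists (grey) and for the 9 genes (red), in the nucleus (left) and the cytoplasm (right). Points are spread vertically for legibility only, blue bars are medians over all genes of a list found in the table, and dashed lines mark 2-fold. RIG-I-like receptor and TLR3 signalling has the highest nuclear median (0.77), 2-5A synthetases and related genes have the lowest cytoplasmic one (-0.96), and interferon ligands cluster at 0.

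The genes nearest in pattern to each member at 5 FPKM or more in at least 1 column were found by the Euclidean distance of log2(FPKM + 1) over the 4 columns, with predicted gene models and small RNA genes left out. They were Hyi (0.427) and Prosc (0.444) for Eif2ak2, Slc6a18 (0.502) and Gjc3 (0.594) for Zbp1, Ier2 (0.425) and Pbld1 (0.568) for Xaf1, Mrps30 (0.270) and Polr2a (0.316) for Mavs, and B3galnt2 (0.0759) and Hbp1 (0.0929) for Adar. Ier2, nearest to Xaf1, had 10.4 FPKM in the MTR4-null nucleus and 1.30 in the WT nucleus, next to 13.0 FPKM in the MTR4-null cytoplasm and 0.154 in the WT cytoplasm. Slc6a18, nearest to Zbp1, had 3.34 FPKM in the MTR4-null nucleus and 11.8 in the WT nucleus, beside 0.711 FPKM in the MTR4-null cytoplasm and 0.0225 in the WT cytoplasm. With 4 points the distance describes likeness in these columns only.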

How the data were processed

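Total RNA libraries of nuclei and cytoplasms from Mtr4-null and WT oocytes were sequenced as paired ends of 150 bp after depletion of ribosomal RNA and selection of cDNA of 300 to 400 bp, per the labels' protocols. The authors deposited FPKM values in 4 columns, 1 per group, without single libraries. The build mm9, TopHat2 2.1.1 and Cufflinks 2.2.1 appear in the submitters' processing notes, and settings and strand are not given in the sources used here. Of the values above 0, 56.7% to 67.3% end in 33 or 67, against 2% by chance, the pattern of means over 3 values, so the number of libraries behind each mean is uncertain. A row with no gene name was left out. Over the 4 columns it held as much as all named genes together (50% of the sum of both), as a row of column totals would.

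Differences were taken on log2(FPKM + 1), with a pseudocount of 1, in Python 3.11.15 with pandas 2.3.3. Genes at 1 FPKM or more in at least 1 column were counted, and the counting was tested on simulated data. FPKM is scaled to the library's mapped total, so a change in abundant RNAs shifts all other genes. Up to 4 genes per pathway list were named, those with the largest genotype difference at 5 FPKM or more, besides genes said to be chosen afterwards. The members and lists were chosen with earlier results of these data known. Transcript GC content came from GENCODE M21, and overlapping genes, neighbouring genes and promoters from RefSeq. Both are on GRCm38, with which no coordinates of the mm9 table were mixed. Other pseudocounts, filters, scalings and fold thresholds were tried. Of the listed genes 1 is not reported here and was left out of the lists.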

Additional observations from a re-analysis of the deposited data

Results flagged for a closer look

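Zbp1 was lower in the MTR4-null nucleus than in the WT nucleus (4.40 against 13.3 FPKM) and higher in the MTR4-null cytoplasm than in the WT cytoplasm (1.18 FPKM against a listed 0). The genotype differences of the compartments thus had opposite signs, and the nuclear one minus the cytoplasmic one was -2.53 on the log2(FPKM + 1) scale. With a pseudocount of 5 neither difference reached 2-fold (-0.96 in the nucleus and 0.31 in the cytoplasm). The -2.53 was not tested, since each group has 1 column.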

How the results depend on the processing

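No paired analysis was possible because the columns carry no replicate numbers, and for the same reason leaving out replicates was not run. The tally covers 360 values, 36 differences of single genes under 10 alternatives. Of these, 322 kept their side of the fold threshold, and 15 of the 322, all differences within 2-fold, changed sign. A further 14 fell below the threshold, 24 passed it, and 0 of the differences past 2-fold changed sign. With no filter or one at 5 FPKM, each difference was the main value again, as -1.40 for Zbp1 between MTR4-null and WT nuclei. Those values kept their side by construction and say nothing about robustness. A change of pseudocount or fold threshold leaves every sign as it is. Signs were thus open to change only under the 4 other scalings. Among these, centring moved every difference of a comparison by the same amount, less than 1 on the log2 scale. Centring could therefore not turn the sign of a difference past 2-fold.

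In the nucleus 1 gene was higher and 1 lower in MTR4-null with a pseudocount of 5 or at 3-fold, and Zbp1 was not past the threshold in either case. With a pseudocount of 0.1, at 1.5-fold and under each of the 4 other scalings, 3 were lower there, with Ddx58 added. In the cytoplasm 1 was higher with a pseudocount of 5 or at 3-fold, 2 were lower with a pseudocount of 0.1 or at 1.5-fold, and 1 was lower after quantile normalization. There 3 were higher, with Mavs added, at 1.5-fold, after quantile normalization and after rescaling without small RNA genes. The same 3 were higher after centring on genes that reached 1 FPKM in all 4 columns. Between compartments of MTR4-null, 3 were higher in the nucleus with a pseudocount of 0.1 or at 1.5-fold, and 0 with a pseudocount of 5, at 3-fold and under each other scaling. With 3 scalings (centring on genes that reached 1 FPKM in all 4 columns, rescaling without small RNA genes, quantile normalization) 1 gene, Xaf1, was lower there. Between compartments of WT, 2 were higher in the nucleus with a pseudocount of 5 or at 3-fold (without Xaf1) and 4 at 1.5-fold, where 1 was lower. The causes were not tested.

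Over the 14270 genes the counts moved as well: with a pseudocount of 5, 1735 were higher and 598 lower in the MTR4-null nucleus, against 3417 and 1753 with a pseudocount of 1, and 869 were higher and 1671 lower in the cytoplasm, against 2135 and 3047. At 3-fold these were 1768, 688, 1087 and 845. Values near or under 1 FPKM are limited by a depth that is unknown.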
